A study of Homo sapiens with 2 samples.

Results

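Chromatin accessibility at the genes of the MYC network was read from the ATAC-seq peaks of B2B cells. The set comprised 9 of the 38849 protein-coding and lncRNA genes in GENCODE 44, chosen by name: MYC, MYCN and MYCL, the lncRNA gene PVT1 next to MYC, and MAX, MXD1, MXI1, MNT and MGA. For MYC and PVT1 all peaks with a summit within 1.5 Mb of the MYC transcription start site (TSS) were taken, and for the other 7 genes all peaks within 100 kb of the TSS of the canonical transcript. These windows held 86 of the 28735 peaks of replicate 1 and 98 of the 36162 peaks of replicate 2. B2B is BEAS-2B, an immortalized and non-cancerous line of human bronchial epithelial cells, and wild-type cells were profiled untreated in 2 biological replicates. ATAC-seq maps accessible DNA by letting the Tn5 transposase insert sequencing adapters into it. There was 1 condition, so no groups were compared, and the replicates give the spread of each value.

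MYC, MYCN and MYCL are basic helix-loop-helix transcription factors that bind the E-box sequence CACGTG as dimers with MAX and activate genes of growth, ribosome production and metabolism. MXD1, MXI1, MNT and MGA also pair with MAX and compete with MYC for the same sites, mostly as repressors. MYC lies in a gene-poor stretch of chromosome 8 known for distant enhancers that differ between tissues, and PVT1, a long noncoding RNA gene, begins downstream of it and is often amplified together with it in cancer.

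Fold enrichment is the deposited measure of peak strength, in which the fragments stacked over a summit, plus 1, are divided by the local background, plus 1. For the median peak it was 6.06 and 6.57 in the 2 lists. Solving the deposited values for the fragments gave a median of 35 and 30 per summit and a minimum of 16 and 13, and more were needed where the local background was high. A missing peak is thus no proof of closed chromatin. Whether the caller stacked paired fragments or extended single reads is not given in the sources used here, and they are called fragments throughout. Overlapping peaks of both lists were merged into 37661 regions, of which 25366 held a peak of each replicate. The labelled cell type was checked at marker promoters. A peak in both replicates lay at 1 of 12 epithelial markers (KRT18), at 8 of 12 mesenchymal markers and at 2 of 10 immune and endothelial markers (CD14 and KDR). Over all protein-coding genes the share was 52.3%, but the marker promoters were poorer in CpG dinucleotides. In 1 kb around the TSS their medians were 44.5, 52 and 22 in that order, against 66 over all protein-coding genes. CDH1, EPCAM, KRT5 and TP63, which define epithelial or basal cells, had none. Missing peaks do not settle the state of the cells, so the name B2B is used here for the line only.

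The regions shown first are the 5 strongest near MYCN, MYCL, MAX, MXD1, MXI1, MNT and MGA whose printed window touches no annotated exon. They are shown as the sequences behind the accessible sites of these genes. Each is the hg38 reference around the summit of the region, 100 bp to either side, on the strand of the gene, with any AP-1 (TGAGTCA or TGACTCA), TEAD (ACATTCC) or E-box (CACGTG) word on either strand in capitals. The MXD1 promoter region lay at chr2:69914663-69914863, the MNT region in an intron of SGSM2 at chr17:2359432-2359632, the MXI1 regions at chr10:110304980-110305180 (between genes, beside the TSS of SMNDC1) and chr10:110211186-110211386 (intron of MXI1), and the MYCN region at chr2:15912290-15912490 (between genes).
MXD1, −0.346 kb: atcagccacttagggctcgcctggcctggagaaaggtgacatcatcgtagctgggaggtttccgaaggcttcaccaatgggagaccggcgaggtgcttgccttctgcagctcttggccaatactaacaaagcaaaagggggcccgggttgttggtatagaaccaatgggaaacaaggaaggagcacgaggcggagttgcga
MNT, +41.5 kb: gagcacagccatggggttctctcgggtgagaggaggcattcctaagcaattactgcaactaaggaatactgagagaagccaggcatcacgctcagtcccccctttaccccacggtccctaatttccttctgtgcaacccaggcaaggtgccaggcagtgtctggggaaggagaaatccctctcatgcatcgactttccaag
MXI1, +97.5 kb: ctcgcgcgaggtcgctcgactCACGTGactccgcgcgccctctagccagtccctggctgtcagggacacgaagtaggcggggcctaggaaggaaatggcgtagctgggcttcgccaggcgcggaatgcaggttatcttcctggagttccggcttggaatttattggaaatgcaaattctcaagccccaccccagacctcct
MXI1, +3.68 kb: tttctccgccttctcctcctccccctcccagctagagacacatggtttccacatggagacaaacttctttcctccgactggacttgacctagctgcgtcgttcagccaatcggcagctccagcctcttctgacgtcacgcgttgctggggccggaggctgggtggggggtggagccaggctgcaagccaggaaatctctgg
MYCN, −28.2 kb: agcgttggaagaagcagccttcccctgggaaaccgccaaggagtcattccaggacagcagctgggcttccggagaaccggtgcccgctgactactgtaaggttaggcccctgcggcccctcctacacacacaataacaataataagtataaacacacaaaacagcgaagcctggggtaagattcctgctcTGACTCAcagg
Of these 5 windows, the MXI1 window at +97.5 kb held an E-box and the MYCN window an AP-1 word, and the other 3 held none of the 3 words.

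The E-boxes within 100 bp of a summit at the start of MNT are shown because E-boxes are the sites that MYC:MAX dimers and their antagonists share. Each is given with 10 bp to either side, on the strand of the gene. The sites lay at chr17:2401238-2401263, −190 bp from the TSS, and at chr17:2399719-2399744 in an intron, +1329 bp from it.
MNT, −190 bp: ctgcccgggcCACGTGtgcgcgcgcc
MNT, +1329 bp: cgcccccgacCACGTGcaccggggac
The first of these lies within 500 bp of the TSS, where MNT held 2 E-boxes in all. Among all protein-coding promoters 18.3% held at least 1.

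A promoter peak, within 1 kb of the TSS, was present in both replicates at 7 of the 9 genes: MYC, MYCL, PVT1, MAX, MXD1, MXI1 and MNT. MYCN and MGA had none in either replicate. Genome-wide, such a peak was found at 52.3% of protein-coding genes and at 18.8% of lncRNA genes. The counts here were 6 of 8 protein-coding genes and the 1 lncRNA gene. The protein-coding members held from 62 (MXI1) to 120 (MYCL) CpG dinucleotides in 1 kb around the TSS. Of all protein-coding promoters with at least 65, 73.7% had such a peak. PVT1 held 90, against a median of 15 over lncRNA genes. By their values the promoters were divided here into a high and a low set. MAX and MXD1 stood between 14.1 and 16.4 in fold enrichment in every replicate, and the other 5 between 4.33 and 8.38. The sets were drawn from these same values, so the gap between them is not a separate result. The median of called protein-coding promoters, 8.92, lies in that gap. Within each set the order changed from replicate to replicate. The split holds for canonical start sites: with any annotated start site the mean of PVT1 was 11.1 in place of 6.36 and that of MXI1 9.67 in place of 5.62, both below MAX and MXD1.

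**Figure D1:**
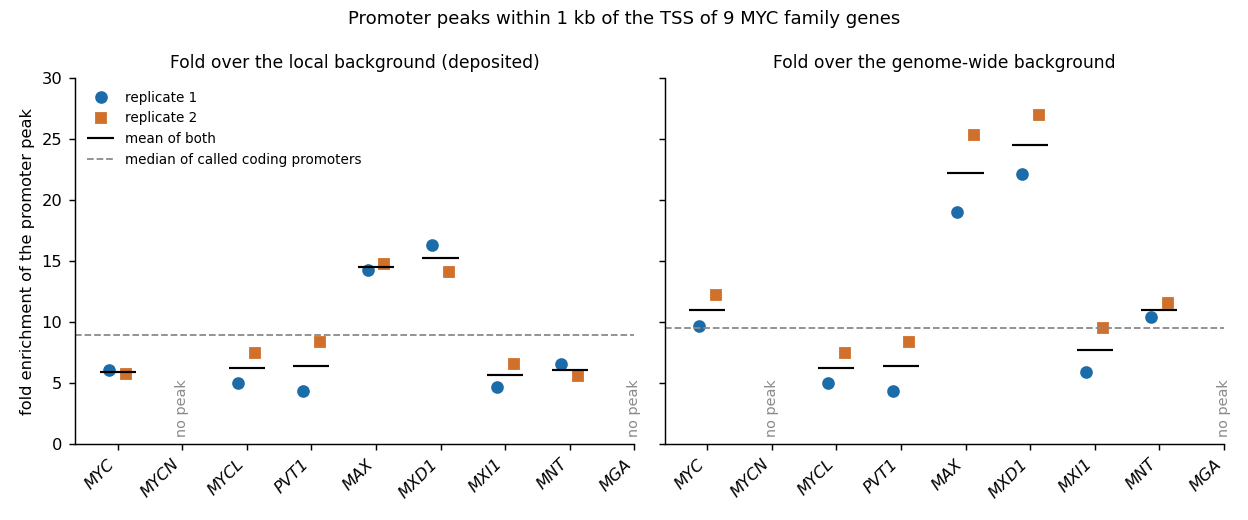
Fold enrichment of the strongest promoter peak (vertical axis) of 9 MYC family genes in replicate 1 (circles) and replicate 2 (squares), with the mean as a bar and the median of called protein-coding promoters as a dashed line. Left, over the local background as deposited, MAX and MXD1 lie above the dashed line in both replicates and MYC, MYCL, PVT1, MXI1 and MNT below it; right, over the genome-wide background of each library, both values of MYC and of MNT lie above the line.

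MYC (ENSG00000136997.22, chromosome 8, 127735434 to 127742951, plus strand, 3 exons) carried a pair of promoter peaks in each replicate. The peak nearer the TSS had its summit at −114 bp in replicate 1 and −79 bp in replicate 2, with fold enrichments of 6.03 and 4.75. The other had its summit at −943 and −923 bp, with fold enrichments of 5.21 and 5.71. The stronger of the pair was the nearer one in replicate 1 and the farther one in replicate 2, so neither was the main peak in both. Taking the stronger peak of each replicate, MYC had a fold enrichment of 5.87 ± 0.221 (SD, n = 2), higher than 16.7% of the protein-coding promoters called in both replicates, whose median was 8.92.

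By its fragments the MYC promoter ranked higher than by this ratio. The stronger MYC peak had 55 fragments at its summit in replicate 1 and 53 in replicate 2, more than 77.8% and 81.5% of the peaks in the respective lists. The local background there was 8.29 and 8.45 fragments, which is 1.74 and 2.48 times the genome-wide background of 4.77 and 3.41 fragments. Against the genome-wide background the MYC promoter had a fold of 9.70 in replicate 1 and 12.2 in replicate 2, higher than 60.0% of called promoters. This scale was added after the values had been seen. MNT moved in the same way, from a percentile of 19.3 to 60.0. MYCL and PVT1, whose local background equalled the genome-wide one, kept their fold. MAX and MXD1 remained the 2 highest, at percentiles of 92.4 and 94.96.

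Around MYC itself, a weaker region lay at −1.98 kb, at a TSS of the antisense lncRNA gene CASC11, with fold enrichments of 4.55 and 4.35. Replicate 1 had a further peak within the gene at +1.67 kb, with a fold enrichment of 3.05. Replicate 2 had a further peak just past the gene at +6.98 kb, with a fold enrichment of 7.93 and an AP-1 word. These last peaks were each missing from the other list.

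The other oncogenes of the family differed from each other. By the deposited fold enrichment the replicate values of MYCL lay on either side of those of MYC. MYCL (chromosome 1, 39895428 to 39902256, minus strand), known from small cell lung cancer, had a pair of promoter peaks in each replicate. The stronger of the pair had fold enrichments of 5.02 and 7.48, which rested on 28 and 32 fragments. Its summit lay at +277 bp in replicate 1 but at −99 bp in replicate 2. The weaker had its summit at −224 and +334 bp, with fold enrichments of 4.16 and 4.30. MYCN (chromosome 2, 15940550 to 15947007, plus strand), known from neuroblastoma and normally active in embryonic tissue, had no promoter peak. The only region within 100 kb of MYCN lay at −28.2 kb, between genes, with fold enrichments of 6.76 and 8.61, and held the AP-1 word printed above. Downstream of MYCN the next peak was 568 kb away in both replicates. The MYCN promoter holds 65 CpG dinucleotides in 1 kb around the TSS, against a median of 66 over protein-coding genes.

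The obligate partner MAX (chromosome 14, 65006174 to 65102695, minus strand) had 1 promoter peak, with fold enrichments of 14.2 and 14.8 and 109 and 111 fragments. MXD1 (chromosome 2, 69897688 to 69942945, plus strand), an antagonist tied to differentiation, had fold enrichments of 16.4 and 14.1 and 127 and 118 fragments. Their means of 14.5 ± 0.368 and 15.3 ± 1.58 (SD, n = 2) were higher than 87.2% and 89.6% of called promoters. MAX was the lower of the pair in replicate 1 and the higher in replicate 2, so their order is within the spread of the replicates. All 14 annotated MAX start sites, spread from −178 to +832 bp, had a peak within 1 kb in both replicates.

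MXI1 (chromosome 10, 110207605 to 110287365, plus strand), also called MXD2, was accessible at several starts. Its canonical promoter had fold enrichments of 4.65 and 6.59. A region at +18.3 kb, at the start of shorter annotated transcripts, had 11.1 and 8.25, and a region in the first part of the gene at +3.68 kb had 9.24 and 7.53. Both of these lay above the canonical promoter in both replicates. A region at +14.4 kb, in an intron, had 6.98 and 5.83 and an AP-1 word. Of 37 distinct MXI1 start sites, 35 had a peak within 1 kb in both replicates.

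MNT (chromosome 17, 2384073 to 2401104, minus strand), the most widely expressed of the antagonists, had a string of modest regions in place of 1 strong promoter peak. Those within 1 kb of the TSS had summits at −0.628 kb, with fold enrichments of 6.58 and 5.58, and at −0.204 kb, with 3.92 and 3.39. The intronic region at +1.35 kb, which held an E-box and a TEAD word, had 6.76 and 6.91, and that at +8.09 kb had 6.66 and 7.13. The region at +41.5 kb in SGSM2 was the strongest near MNT by the mean of both replicates, but its values of 7.103 and 14.3 showed the widest replicate gap among the regions near the 7 genes.

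MGA (chromosome 15, 41621134 to 41773081, plus strand), a very large MAX partner that also carries a T-box domain, had no peak within 100 kb in either replicate. The nearest peaks were at −167 kb in replicate 1 and −116 kb in replicate 2, at the start sites of ITPKA and RPAP1, and at +114 kb in both, at the start site of MAPKBP1, with fold enrichments of 12.1 and 12.9. None of 15 annotated MGA start sites had a promoter peak in both replicates. Its canonical promoter holds 96 CpG dinucleotides in 1 kb. Of the 4412 protein-coding promoters with at least as many, 74.1% were called in both replicates and 18.0% in neither. No peak within 100 kb was found for 1584 protein-coding genes (7.92%), and 155 of these had a promoter as rich in CpG as that of MGA.

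**Figure D2:**
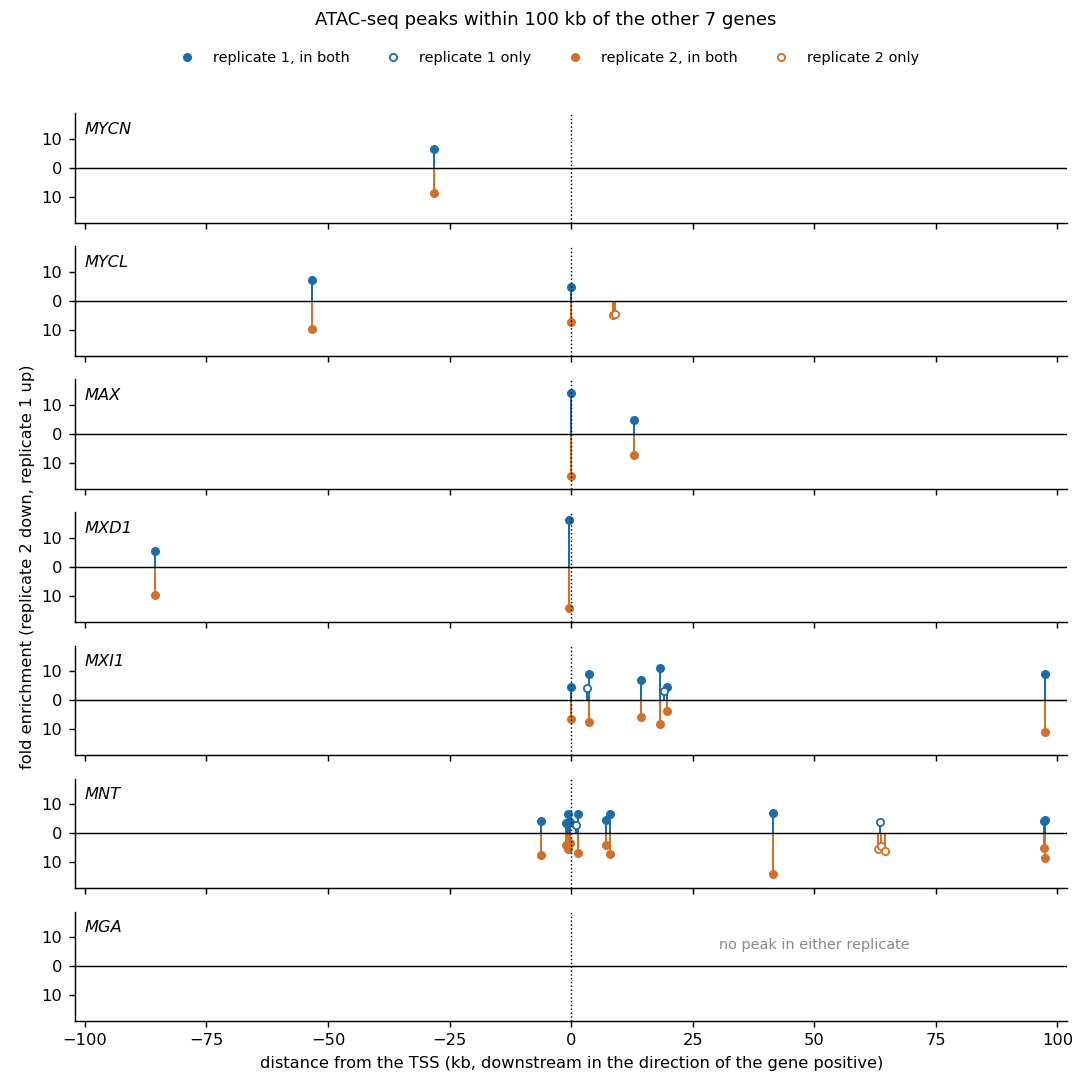
Peaks within 100 kb of the TSS of 7 genes, by distance from the TSS in kb (horizontal axis) and fold enrichment (vertical axis, replicate 1 upwards and replicate 2 downwards). Filled points belong to regions with a peak in both replicates and open points to a single replicate. MNT had 10 filled regions, MXI1 had 6, MYCN had 1 and MGA had 0.

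The windows of 100 kb around these 7 genes held 32 regions, of which 23 had a peak in both replicates. Of the 23, 6 lay within 1 kb of the TSS of the gene itself and 12 were distal, more than 1 kb from the canonical TSS of every protein-coding gene. An alternative start site of MXI1 or MNT lay within 1 kb of 5 of the 12. Among all protein-coding genes 88.7% had a region in both replicates within 100 kb and 61.6% a distal one. Of the 7 genes, 6 had a region, with MGA as the exception, and 4 had a distal one. The counts ran from 0 at MGA and 1 at MYCN, over 2 each at MYCL, MAX and MXD1, to 6 at MXI1 and 10 at MNT, against a median of 3. MNT had more than 96.0% of protein-coding genes. The strong promoters of MAX and MXD1 had few regions nearby: 1 further region lay near each, at +12.8 kb in an intron of MAX (4.85 and 7.25) and at the TSS of GMCL1, −85.5 kb from MXD1 (5.72 and 9.74).

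The MYC window held many accessible regions for a stretch with few genes. The peaks numbered 58 in the first list and 69 in the second, 63.5 ± 7.78 per replicate (SD, n = 2). They formed 73 regions, of which 53 had a peak in both replicates, 4 in replicate 1 alone and 16 in replicate 2 alone. Of the regions seen in replicate 1, 93.0% were shared, against 92.0% over the whole genome, and of those in replicate 2 76.8%, against 71.5%. The window thus had 17.7 shared regions per Mb, where the whole assembly had 8.21. Only 3 protein-coding genes start in it, where the median protein-coding gene has 33 within the same distance. By all shared regions the window stood above 82.7% of the windows around protein-coding TSSs, whose median was 36, and by the peaks of replicates 1 and 2 above 80.7% and 73.2%. Its 50 distal regions exceeded the number around 99.0% of protein-coding TSSs, whose median was 17, and 1 of the 50 lay near an alternative start of a protein-coding gene. Distal refers to protein-coding starts alone, so the 50 include the PVT1 promoter and regions at other lncRNA starts, such as those of CASC11 and CASC19. The count of protein-coding TSSs in the MYC window exceeded that of 0.405% of the windows.

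**Figure D3:**
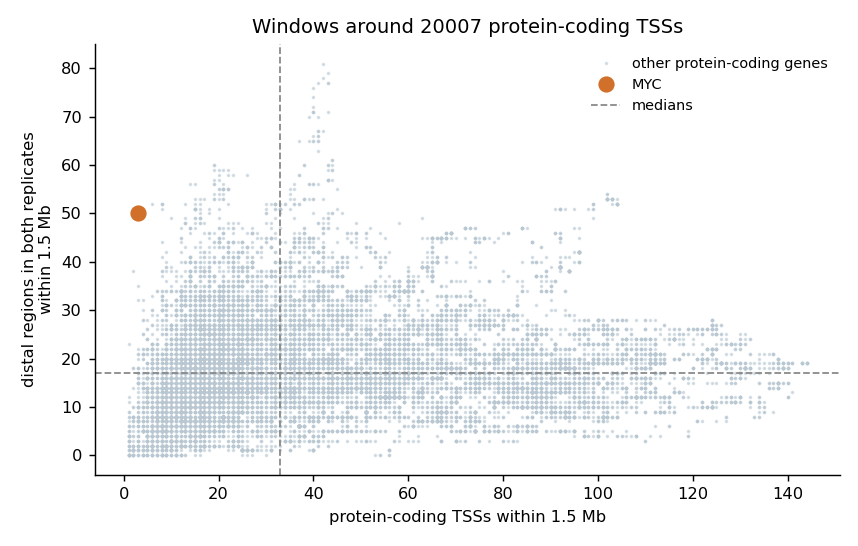
Each point is 1 of 20007 protein-coding TSSs, with the number of protein-coding TSSs within 1.5 Mb on the horizontal axis and the number of distal regions with a peak in both replicates within 1.5 Mb on the vertical axis. Dashed lines mark the medians of 33 and 17. MYC, with 3 and 50, lies at the upper left edge.

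The regions were spread unevenly over the window. The PVT1 gene body held 24 of the 53, upstream of MYC lay 19, past PVT1 lay 7, and the stretch from MYC to PVT1 held 1, the PVT1 promoter itself. The gene body of PVT1 thus had 61.1 shared regions per Mb, against 12.7 upstream of MYC and 6.67 past PVT1. The longest stretch without a shared region ran from +588 to +930 kb, a gap of 342 kb. Within 100 kb of the MYC TSS, to both sides, lay 7 shared regions, more than at 86.2% of protein-coding genes. Of these 7, 5 were distal, more than at 94.2%. Upstream of MYC the nearest regions were weak: after those at the promoter and at −1.98 kb, the next lay at −67.3 kb (3.64 and 4.08) and −229 kb (3.64 and 6.57).

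**Figure D4:**
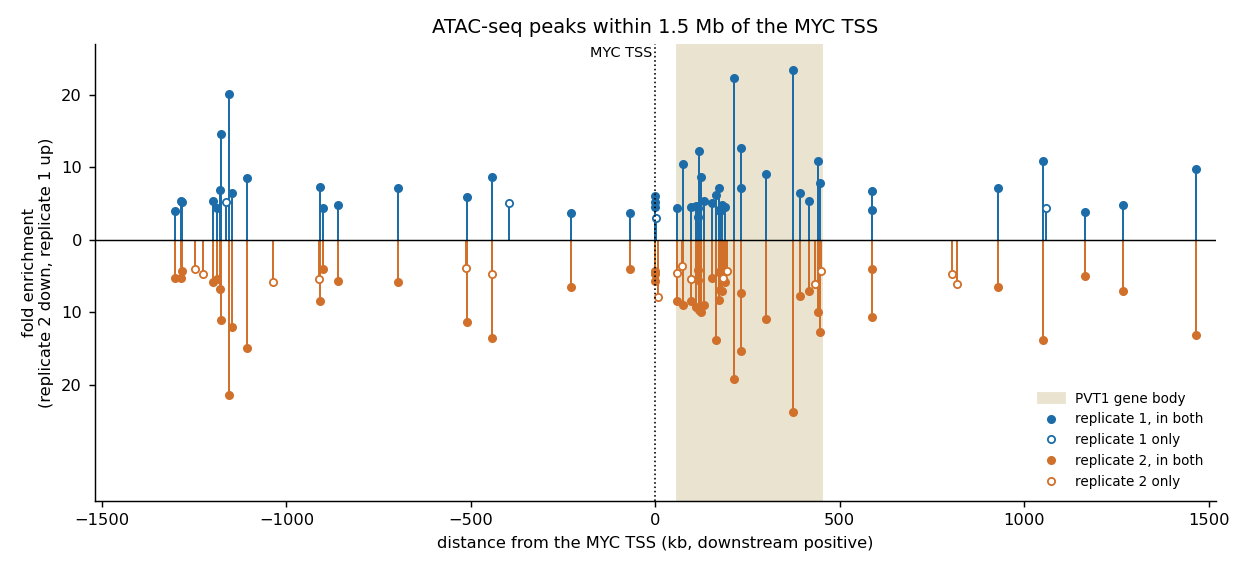
Peaks within 1.5 Mb of the MYC TSS, by distance in kb (horizontal axis, downstream positive) and fold enrichment (vertical axis, replicate 1 upwards and replicate 2 downwards). Filled points belong to regions with a peak in both replicates, open points to a single replicate, and the shaded band is the PVT1 gene. The tallest points in both replicates lie at +373 and +214 kb inside PVT1 and at −1156 kb in PCAT1.

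PVT1 (ENSG00000249859.14, chromosome 8, 127794526 to 128187101, plus strand) is 393 kb long. Its promoter peak had its summit at −140 and −141 bp, with 24 fragments in replicate 1 and 36 in replicate 2. The fold enrichments were 4.33 and 8.38, the largest relative gap between the replicates among the 7 promoters. The regions inside the gene had a median of 7.20 and a maximum of 23.6 by the mean of both replicates. Of the 24, 21 were above the promoter in replicate 1, 12 in replicate 2 and 16 by the mean. Of the 24, 22 had their summit in an intron and 2 in an exon. Replicate 2 had 6 further regions in the gene that replicate 1 lacked, and replicate 1 had none of its own. PVT1 has 132 distinct annotated start sites, and 59 of them had a peak within 1 kb in both replicates, so regions inside the gene can be promoters of its shorter transcripts as well as distal elements.

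Per length, PVT1 carried 6.11 shared regions per 100 kb. Among the 2123 protein-coding and lncRNA genes of at least 200 kb this was the highest density, before SEPTIN9 with 5.91, against a median of 0.412, and 608 of these genes had no region. The comparison and its length limit were chosen after the values had been seen. By the peaks of each replicate alone PVT1 was also first, at 6.37 peaks per 100 kb in replicate 1 and 7.64 in replicate 2. Among the 5103 genes of at least 100 kb it ranked at 14.

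**Figure D5:**
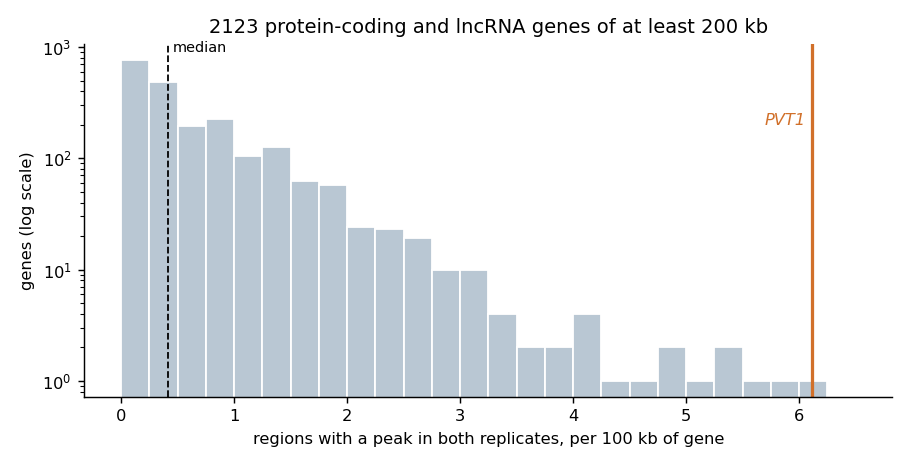
Number of genes (vertical axis, log scale) by regions with a peak in both replicates per 100 kb of gene (horizontal axis), over 2123 genes of at least 200 kb. PVT1, at 6.11, is in the last filled bin, and the dashed line marks the median of 0.412.

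The strongest regions of the window ranked high in the whole genome. The first lay in a PVT1 intron at +373 kb, with fold enrichments of 23.4 and 23.8 and 139 and 147 fragments, above 99.6% of all shared regions. The next lay in a PVT1 intron at +214 kb, with 22.3 and 19.2, and in an intron of the lncRNA gene PCAT1 at −1156 kb, with 20.1 and 21.4. In each replicate these 3 stood far above the MYC promoter. None of them held an AP-1, TEAD or E-box word within 100 bp of the summit.

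Further down the order, the PVT1 region at +233 kb had 12.6 and 15.3, with both an AP-1 and a TEAD word. A region at the shared start of LRATD2, a protein-coding gene, and PCAT1, at −1178 kb, had 14.6 and 11.1. The region at +1052 kb in CCDC26, a lncRNA gene, had 10.9 and 13.8 and an AP-1 word. The others of the first 10 lay at −1107 kb in PCAT1 (8.49 and 14.95, TEAD), at +1466 kb in CCDC26 (9.70 and 13.1), at −441 kb in CASC8 (8.66 and 13.6, AP-1) and at +118 kb in PVT1 (12.3 and 9.64, AP-1). Of these 10, 4 were in PVT1, 3 in or at PCAT1, 2 in CCDC26 and 1 in CASC8, a lncRNA gene that overlaps the long annotated span of PCAT1.

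Around LRATD2 and the start of PCAT1, between −1200 and −1100 kb, 7 regions with a peak in both replicates lay close together, a density of 70.0 per Mb. In steps of 100 kb this was the richest stretch upstream of MYC, and the richest inside PVT1, from +100 to +200 kb, held 13. The 7 regions had a median of 9.21. Besides those named, they included −1148 kb, with 6.41 and 12.0 and a TEAD word, and −1179 kb, with 6.83 and 6.81 and an E-box. This last region is in an exon of LRATD2 near an alternative start, and counts as distal by the canonical start; it held the one E-box among the 50. Other regions at starts of lncRNA genes were found at −511 kb for CASC19 (5.89 and 11.3), at −859 kb for a PCAT1 transcript (4.85 and 5.66) and at +587 kb for ENSG00000286034 (6.76 and 10.6).

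AP-1 is a dimer of JUN and FOS proteins, TEAD proteins are the DNA-binding partners of YAP and TAZ, and both are commonly found at distal elements of adherent cells. Of the 50 distal regions of the MYC window, 18 had the AP-1 word no more than 100 bp from the summit, which is 36.0% (95% Wilson interval 24.1 to 49.9). Over all distal regions the share was 32.6%, inside the interval. In equally long windows shifted by 1000 bp it was 4% around the MYC regions and 3.38% genome-wide. Inside PVT1 the share was 9 of 24 (37.5%, 21.2 to 57.3) and in the remainder of the window 9 of 26 (34.6%, 19.4 to 53.8). Each of these shares lies inside the interval of the other, so a difference between them was not detectable at these numbers.

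The TEAD word was in 8 of the 50 distal regions (16.0%, 8.34 to 28.5), against 10.1% over all distal regions, and the E-box in 1 (2.00%, 0.354 to 10.5), against 3.38%. Of the 12 distal regions near the other 7 genes, 2 held an AP-1 word (16.7%, 4.70 to 44.8), those of MYCN and of MXI1 at +14.4 kb. All these intervals include the share over all distal regions, so no difference was detectable at these numbers. Intervals cover counting error only.

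Promoter peaks were also counted at genes that act with, control or follow the MYC family. Over all protein-coding genes the share with a peak in both replicates was 52.3%. Among those with at least 65 CpG dinucleotides around the TSS it was 73.7%. Among 26 genes of the wider MYC:MAX network and its cofactors, 19 had a promoter peak in both replicates (73.1%), with a median CpG count of 95. The strongest were ACTL6A, a chromatin remodelling subunit (16.2 and 16.3), MXD4, a further antagonist (14.99 and 14.8), and EP400, a remodelling ATPase (13.2 and 14.1). Neither replicate had a peak at CREBBP, MLX, MLXIPL, SIN3B or SMARCB1. MLX is the partner of the glucose-sensing factor MLXIPL, and SIN3B is a corepressor that the MXD proteins recruit.

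Among 16 genes that control the stability of the MYC protein, 14 had a promoter peak in both replicates (87.5%), with a median CpG count of 98.5. The strongest were AURKA, a mitotic kinase that shields MYCN from degradation (17.1 and 17.5), SKP2, a ubiquitin ligase subunit (18.2 and 14.1), and PPP2R5A, a phosphatase subunit (15.7 and 12.8). STUB1, also a ubiquitin ligase, had none in either.

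Among 34 genes known as MYC targets, 29 had a promoter peak in both replicates (85.3%), with a median CpG count of 84, and 24 held an E-box within 500 bp of the TSS. The strongest were DDX18, an RNA helicase (17.8 and 24.4), RCL1, a ribosome assembly factor (19.2 and 17.7) that may stand in this list for DNPH1, the MYC target once named RCL, and SRM, the spermidine synthase (16.6 and 18.4). Only CCND2, a D-type cyclin, had no peak in either replicate. The shares of the 3 lists stand above the 52.3% of all protein-coding genes, and so do their CpG counts, whose median was 66 over all protein-coding promoters and 80 over those with a peak. Among all protein-coding promoters with at least 65 CpG dinucleotides 73.7% had a peak in both replicates, and with at least 96 it was 74.1%. The share of the network list was close to these, and those of the other lists were higher by a margin that was not tested.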

How the data were processed

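The ATAC-seq peak lists of both replicates were used as deposited. The authors aligned reads with Bowtie2 2.4.4 to hg38, dropped duplicates by code of their own and ran MACS2 2.2.7.1 on each replicate without further removal of duplicates. How the cut positions were shifted is not given in the sources used here. The deposited fold enrichment is a linear ratio over the local background with a pseudocount of 1, and the authors' lists also give the −log10 p and −log10 q. No read totals were used. Fragments at the summit were solved from the ratio and the −log10 p, and met the −log10 p within 0.01 as a whole number for 99.7% and 99.8% of peaks. This solution, the overlap and the motif search were tested on simulated data.

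Only chromosomes 1 to 22, X and Y were used, and peaks were merged across replicates by an overlap of at least 1 bp. GENCODE 44 gave the genes, and distances run from the TSS of the canonical transcript. CpG dinucleotides were counted 500 bp to either side of the TSS. The genes and lists were chosen with earlier results of these data known. All 9 genes were named, with the 10 strongest regions of the MYC window, the nearest regions, those at annotated start sites, and in each list the 3 strongest promoters and the genes without a peak. A motif site at 1 further promoter is not reported here. The alternatives tried were promoters of 500 bp and 3 kb, any annotated TSS, single replicates, a 50% overlap, a minimum −log10 q of 5, the same number of the strongest peaks from either list, MYC windows of 1 and 2 Mb, and other motif windows and spellings. Software was pysam 0.24.0, pandas 2.3.3, numpy 2.4.6, scipy 1.17.1 and matplotlib 3.10.9 under Python 3.11.15.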

Additional observations from a re-analysis of the deposited data

How the results depend on the processing

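No paired analysis was possible because there was 1 group. Counts of promoters, of regions and of list genes stayed within 1.5 times their value at every alternative run for them. The 50% overlap was run for regions only, and equal numbers of peaks were not run for the list genes. Without replicate 1 and without replicate 2 the promoter count of the 9 genes was 7 and 7, and 69 and 62 of the 76 list genes had a promoter peak. The MYC window then had 69 and 58 peaks, and the other 7 windows had 29 and 28. All values for 1 replicate rest on its peaks as listed, not merged into regions. The AP-1 share of the distal regions in the MYC window depended on the window searched: it was 24.0% within 50 bp of the summit, 48.0% over the whole peak, 42.0% with TGANTCA, 37.5% when the −log10 q had to reach 5, and 34.5% to 36.4% with 1 replicate. Over all distal regions the share moved in the same directions, to 22.2% within 50 bp, 38.2% over the whole peak and 39.8% with TGANTCA. The whole peak gave the highest share in the MYC window, whereas TGANTCA gave the highest over all distal regions. Alternatives added after the data had been seen put PVT1 at rank 14 among genes of at least 100 kb and at rank 1 with 1 replicate. The percentile of the MYC window by distal regions was 98.1 in a window of 2 Mb and 98.1 to 99.0 with 1 replicate, and that of the MYC promoter was 60.0 over the genome-wide background against 16.7 over the local one.

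The promoter values of MXI1 and PVT1 depend on the start site: with any annotated TSS their means were 9.67 and 11.1. The mean of MNT, 6.08, became 4.75 within 500 bp, 6.83 within 3 kb and 6.94 with any annotated TSS. That of MYC, 5.87, became 5.39 within 500 bp. Each shared region rests on 2 replicates of 1 line in 1 condition, and a region with fewer than 16 fragments in replicate 1 or 13 in replicate 2 could not be seen, nor could stronger ones where the local background was high.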

Other observations

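Across the genome 142 distal regions were at least as strong as the weakest of the 3 strongest distal regions in the MYC window, and 46 of these held an AP-1, TEAD or E-box word, among them 35 with AP-1. In the MYC window 24 of the 50 distal regions held at least 1 of the words, but none of its 3 strongest did. This split was made after the values had been seen.

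The protein-coding genes whose windows of 1.5 Mb were most like that of MYC, by peaks in replicate 1, peaks in replicate 2 and protein-coding start sites on a log2 scale, were POU5F1B, RAD23B and TENM2. POU5F1B lies inside the MYC window and had the same counts, 58 and 69 peaks and 3 start sites. RAD23B on chromosome 9 had 40 and 53 peaks with 3 start sites, and TENM2 on chromosome 5 had 45 and 53 peaks with 2.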
